A study of Mus musculus with 4 samples.

Results

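The VEGF family is described here as 9 genes: the receptors *Kdr*, *Flt1* and *Flt4*, the co-receptors *Nrp1* and *Nrp2*, and the ligands *Vegfa*, *Vegfb*, *Vegfc* and *Pgf*. They were chosen by name, and all 9 were found among the 16408 nuclear genes listed for aortic cells of 4 mice. The data are SORT-seq libraries. Cells are sorted singly into wells, each captured RNA molecule receives a random tag (the unique molecular identifier, UMI) beside a barcode of its well, and transcripts are read from their 3′ end, so that 1 UMI stands for 1 captured molecule. All 4 mice carried 2 floxed copies of *Epas1*, the gene of the hypoxia-inducible factor HIF2A. The 2 mice labelled *Epas1* EC-KO (genotype Epas1fl/fl, Cdh5Cre/+) also carried a Cre driven by the promoter of *Cdh5*, the VE-cadherin gene, which the study's methods name as the tamoxifen-inducible CDH5 Cre-ERT2. The 2 mice labelled *Epas1* EC-WT (Epas1fl/fl, Cdh5+/+) were littermates with no Cre. Both groups were given 5 injections of tamoxifen from 6 weeks of age, and their aortas were taken 2 weeks later. Living CD31+ CD45- cells were sorted from the digested aorta after the adventitia had been pulled away. One plate of 384 wells was made per mouse, so mice are the replicates and n = 2 per group throughout.

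VEGF-A, VEGF-B and placental growth factor (the product of *Pgf*) are secreted ligands of VEGFR-1, the product of *Flt1*, and VEGF-A is also the main ligand of VEGFR-2, the product of *Kdr*, which carries most of the signal for endothelial proliferation, migration and permeability. VEGF-C acts chiefly through VEGFR-3, the product of *Flt4*, which is best known from lymphatic endothelium. Neuropilins have no kinase of their own and bind VEGFs and class 3 semaphorins together with other receptors. *Nrp1* is known from arterial and *Nrp2* from venous and lymphatic endothelium. *Vegfa*, *Flt1* and *Kdr* are textbook targets of hypoxia-inducible factors, so the question put to these genes is whether their RNA differs between CD31+ aortic cells of the mice labelled EC-KO and EC-WT, and in which of the cells they are found.

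A well was taken as a cell if its nuclear genes had 1000 UMIs or more and no more than 25% of its UMIs were mitochondrial. There were 157 and 98 from the EC-KO-labelled mice 1 and 2, and 114 and 72 from the EC-WT-labelled mice. The study's methods give the larger number of cells to EC-WT and these files give it to the mice labelled EC-KO, so every direction here rests on the labels of the deposit. The study's cluster shares by genotype were not set against these data, since the clusters here were rebuilt, and its PCR and staining checks of the deletion were made on the mouse line, not on these plates. *Epas1* itself does not settle the matter. Its values are for the 426 cells left once a smooth muscle-like cluster, described below, was set aside. In the mice labelled EC-KO, *Epas1* had 3152 and 2528 UMIs, or 3079 and 3342 CPM (UMIs scaled to a total of 1000000 nuclear UMIs per mouse). In those labelled EC-WT it had 2152 and 1327 UMIs, or 3332 and 2415 CPM. Its log2 fold change was 0.19 (standard error 0.21, adjusted p = 0.957 from edgeR). Only the transcript's 3′ end is read, and the position of the floxed part was not checked here, so the gene tests nothing about the labels. In the same 426 cells *Pecam1*, the CD31 gene, was found in 97.3% to 100% of the cells of each mouse. *Ptprc*, the CD45 gene, had 1 UMI in all of them. A cluster of 15 smooth muscle-like cells (led by *Tagln*, *Myh11* and *Acta2*) was set aside, which left 149, 94, 113 and 70 cells with 1023791, 756392, 645799 and 549570 nuclear UMIs. The 2 mice that share a flow cell are EC-KO-labelled mouse 2 and EC-WT-labelled mouse 1. All 4 plates carry the same 384 well barcodes by design.

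Among the receptors, *Flt1* was the most often counted. VEGFR-1 binds VEGF-A tightly but signals weakly, and a soluble form made from the same gene cannot be told apart from the full receptor in counts of this kind. *Flt1* (chromosome 5, 147561604 to 147726011, minus strand of GRCm38) had 64 and 61 UMIs in the EC-KO-labelled mice and 32 and 30 in the EC-WT-labelled mice. Scaled to each mouse's total these were 62.5, 80.6, 49.6 and 54.6 CPM. The EC-KO-labelled mice were the higher pair, by less than the counting intervals of the single mice, which overlap (48.1 to 79.8 CPM in EC-KO-labelled mouse 1 and 36.8 to 77.9 in EC-WT-labelled mouse 2, 95% Poisson). These intervals and those below cover counting error only.

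*Kdr* (chromosome 5, 75932827 to 75978458, minus strand) had 14, 12, 8 and 9 UMIs, or 13.7 and 15.9 CPM in the mice labelled EC-KO and 12.4 and 16.4 CPM in those labelled EC-WT. The gene of the main signalling receptor was therefore counted at 14.8 ± 1.55 CPM against 14.4 ± 2.82 CPM (SD, n = 2), with overlapping groups. *Flt4* (chromosome 11, 49609263 to 49652739, plus strand) stood above *Kdr* in every mouse, at 30.3, 34.4, 27.9 and 45.5 CPM from 31, 26, 18 and 25 UMIs. These levels are UMIs of 3′ ends and are not divided by transcript length, so an order between genes is one of molecules captured, not of molecules present.

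*Nrp1* was the family's most counted gene by a wide margin. It lies on chromosome 8 from 128358604 to 128503363 on the plus strand, and it had 1229 and 918 UMIs in the EC-KO-labelled mice and 567 and 517 in the EC-WT-labelled mice. That is 1200.4, 1214, 878 and 941 CPM, the 78th, 80th, 144th and 115th highest gene of the 4 mice and 66.6% to 75.4% of all UMIs of the 9 genes. Both EC-KO-labelled mice were above both others, and the counting intervals of the groups did not overlap (1134 to 1269 CPM at the lower of the EC-KO-labelled mice, 861 to 1025 at the higher of the EC-WT-labelled mice). *Nrp2* (chromosome 1, 62703285 to 62818695, plus strand) showed the opposite order. It had 7 and 5 UMIs in the mice labelled EC-KO and 27 and 22 in those labelled EC-WT, or 6.84, 6.61, 41.8 and 40.0 CPM. Within a group the 2 mice lay close together, and between groups the intervals did not overlap (at most 15.4 CPM against at least 25.1 CPM).

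Of the ligands, *Vegfa* (chromosome 17, 46016993 to 46032369, minus strand) was the most counted in every mouse and second only to *Nrp1*. It had 165, 194, 120 and 76 UMIs, or 161 and 256 CPM in the EC-KO-labelled mice and 186 and 138 CPM in the EC-WT-labelled mice. EC-KO-labelled mouse 2 stood highest, and EC-KO-labelled mouse 1 lay between the EC-WT-labelled mice. *Vegfc* (chromosome 8, 54077606 to 54187096, plus strand) had 79, 42, 59 and 59 UMIs, or 77.2, 55.5, 91.4 and 107 CPM. Here both EC-KO-labelled mice were below both EC-WT-labelled mice. *Vegfb* (chromosome 19, 6982473 to 6987651, minus strand), whose product binds VEGFR-1 alone among the receptors, had 37.1, 19.8, 31.0 and 38.2 CPM, with the groups overlapping. *Pgf* (chromosome 12, 85166635 to 85177790, minus strand) was at the floor of these libraries. It had 2, 1, 0 and 3 UMIs, and 3 UMIs correspond to 2.93, 3.97, 4.65 and 5.46 CPM.

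**Figure D1:**
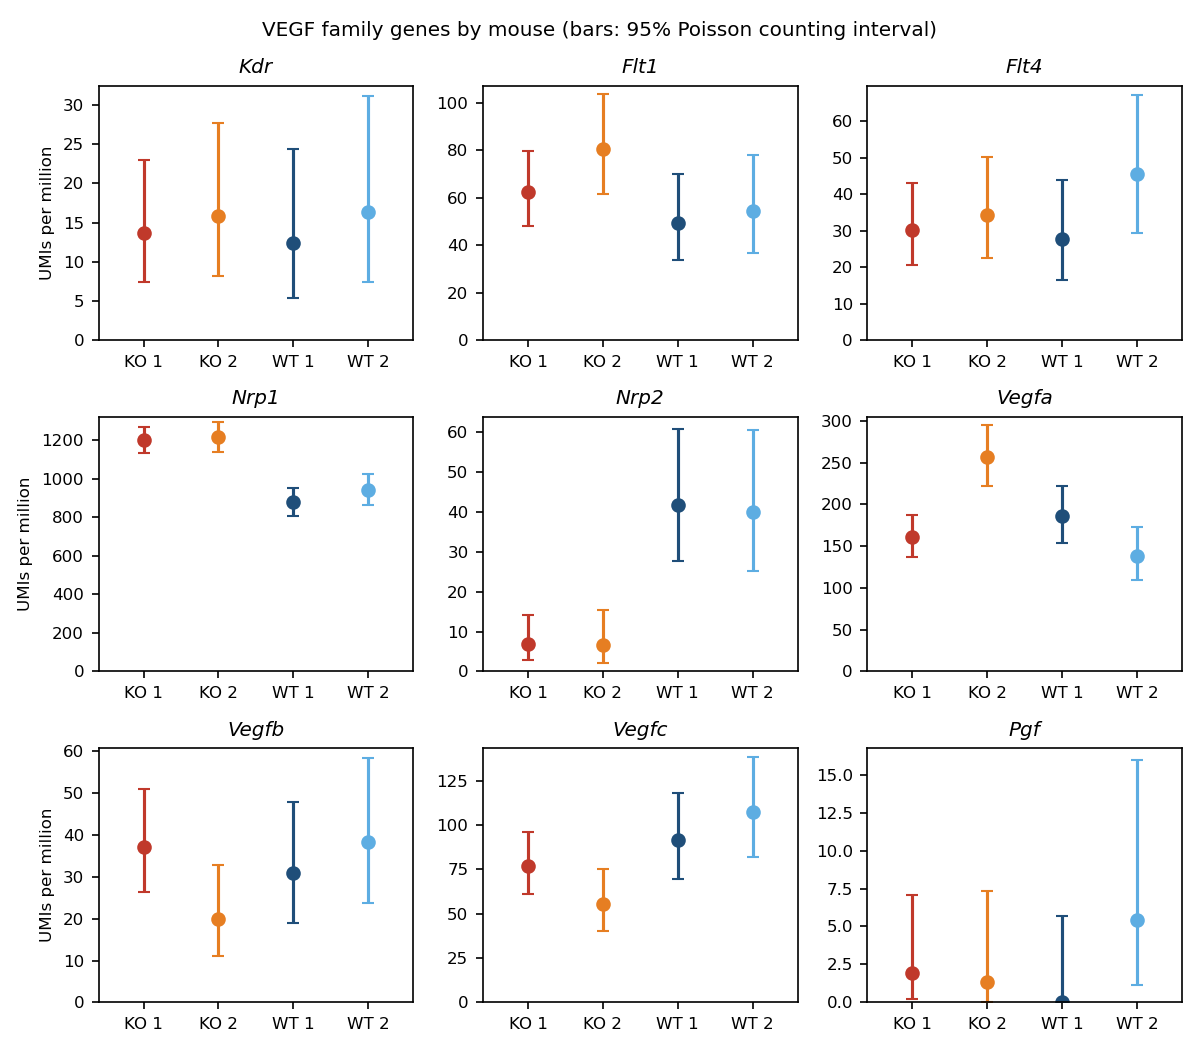
Each panel plots the CPM of 1 gene in the 4 mice, smooth muscle-like cells left out, with 95% Poisson counting intervals as bars (KO and WT stand for the mice labelled EC-KO and EC-WT). The groups separate for *Nrp1* (1200.4 and 1214 against 878 and 941) and, the other way, for *Nrp2* (6.84 and 6.61 against 41.8 and 40.0).

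The order of the 9 genes was *Nrp1* and then *Vegfa* in each mouse. Next came *Vegfc* and then *Flt1* in 3 mice, and the pair changed places in EC-KO-labelled mouse 2 (80.6 CPM for *Flt1*, 55.5 for *Vegfc*). Below them *Vegfb*, *Flt4* and, in the EC-WT-labelled mice, *Nrp2* lay between 19.8 and 45.5 CPM with overlapping intervals in each mouse. *Kdr* followed, and *Pgf* came last in all 4. In the mice labelled EC-KO, *Nrp2* fell to the eighth place, after *Kdr*, and their intervals overlapped (7.48 to 22.9 CPM for *Kdr* and 2.75 to 14.1 for *Nrp2* in EC-KO-labelled mouse 1). Depth limits the lower part of this order, since *Kdr* rests on 43 UMIs and *Nrp2* on 61 in 426 cells.

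The 441 kept cells fell into 6 clusters, found without using the 9 genes. Outside the smooth muscle-like cells, 4 of them, in which 14 endothelial markers summed to 11357 to 13477 CPM, are called here by their leading genes: *Vmn2r55* (141 cells, with a median of only 2237 UMIs), *Meg3* (117 cells), *Dcn* (86 cells) and *Chad* (59 cells). The *Dcn*-led cells are not plain endothelium by their leading genes: their 10 leading genes held 2 of the 8 fibroblast markers (*Dcn* and Lum). No cluster had a gene of the endothelial list among its 10 leading genes, so that list does not set these cells apart. The fibroblast markers summed to 3126 CPM in the *Dcn*-led cells against 237 to 1650 in the other 4 clusters. All 86 had a UMI of *Pecam1*, and 77 (89.5%) one of *Cdh5*, so they were kept in the sums, and the group comparison was also made without them. The remaining cluster, of 23 cells, was led by *Fabp4* and *Cd36*, which serve fatty acid binding and uptake, and by *Lrg1*, *Nr2f2* and *Pde2a*. In it the 8 capillary and lipid-handling markers of a fixed list summed to 13047 CPM, against 379 to 640.1 CPM in the other clusters. The 4 venous markers summed to 1467 CPM there against 139 to 714, and the 8 arterial markers to 576 CPM against 1572 to 1931 in the other 4 clusters. Of the lymphatic list, 3 of 6 genes were listed and *Prox1* and *Pdpn* were not. The listed genes summed to 134 CPM in this cluster, all but 2 of those UMIs from 1 mouse, and to at most 25.2 CPM elsewhere. The 23 cells came from every mouse, with 6 and 3 from the mice labelled EC-KO (3.82% and 3.06% of their kept cells) and 8 and 6 from those labelled EC-WT (7.02% and 8.33%).

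*Kdr*, *Flt1* and *Nrp2* were concentrated in those 23 cells, which are 5.40% of the 426 cells and hold 4.26% of their UMIs. The cluster held 30 of 43 *Kdr* UMIs (69.8%), 53 of 61 *Nrp2* UMIs (86.9%) and 57 of 187 *Flt1* UMIs (30.5%). In it *Kdr* stood at 237 CPM (159.7 to 338, 95% Poisson), *Flt1* at 449.6 CPM (341 to 583) and *Nrp2* at 418 CPM (313 to 547). These values describe the cluster and carry no test, since the cells were grouped on their own RNA, although the 9 genes took no part in that. Because these 3 genes were highest in the same cluster, the 250 bases before the start of each are shown as RefSeq gives them for GRCm38.p6, 5′ to 3′ on the gene's own strand. Capitals mark the core of the hypoxia response element that EPAS1 and HIF1A bind, searched as ACGTG or GCGTG and, on the other strand, CACGT or CACGC.
Kdr, chr5:75978456-75978705, minus strand: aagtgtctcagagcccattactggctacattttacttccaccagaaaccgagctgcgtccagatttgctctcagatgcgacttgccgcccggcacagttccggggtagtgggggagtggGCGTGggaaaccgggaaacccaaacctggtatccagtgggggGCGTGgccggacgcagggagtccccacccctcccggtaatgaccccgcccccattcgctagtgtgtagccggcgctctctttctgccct
Flt1, chr5:147726012-147726261, minus strand: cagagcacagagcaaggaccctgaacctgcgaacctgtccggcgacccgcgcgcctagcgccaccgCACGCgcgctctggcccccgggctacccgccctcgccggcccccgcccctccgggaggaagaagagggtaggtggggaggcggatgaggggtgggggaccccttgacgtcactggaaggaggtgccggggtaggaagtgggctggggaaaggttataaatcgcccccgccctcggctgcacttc
Nrp2, chr1:62703067-62703316, plus strand: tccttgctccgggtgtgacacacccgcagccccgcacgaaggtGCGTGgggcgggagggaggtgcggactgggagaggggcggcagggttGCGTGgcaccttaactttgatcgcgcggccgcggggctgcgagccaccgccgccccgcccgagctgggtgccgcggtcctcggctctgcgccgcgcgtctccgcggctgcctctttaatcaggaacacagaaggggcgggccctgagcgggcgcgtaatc

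*Kdr* carried the letters at 131 and 89 bases before the start, *Flt1* at 184 and *Nrp2* at 207 and 160. All 9 genes had an entry, with 11 promoters in all because *Vegfa* and *Pgf* have 2 each, and 7 promoters, of 7 genes, carried a match. *Flt4*, *Vegfc* and 1 promoter each of *Vegfa* and *Pgf* had none in this window. Of all 32851 promoters of the same length, 38.6% carried a match, so such short letters are common, and a match is a description and not a bound site.

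**Figure D2:**
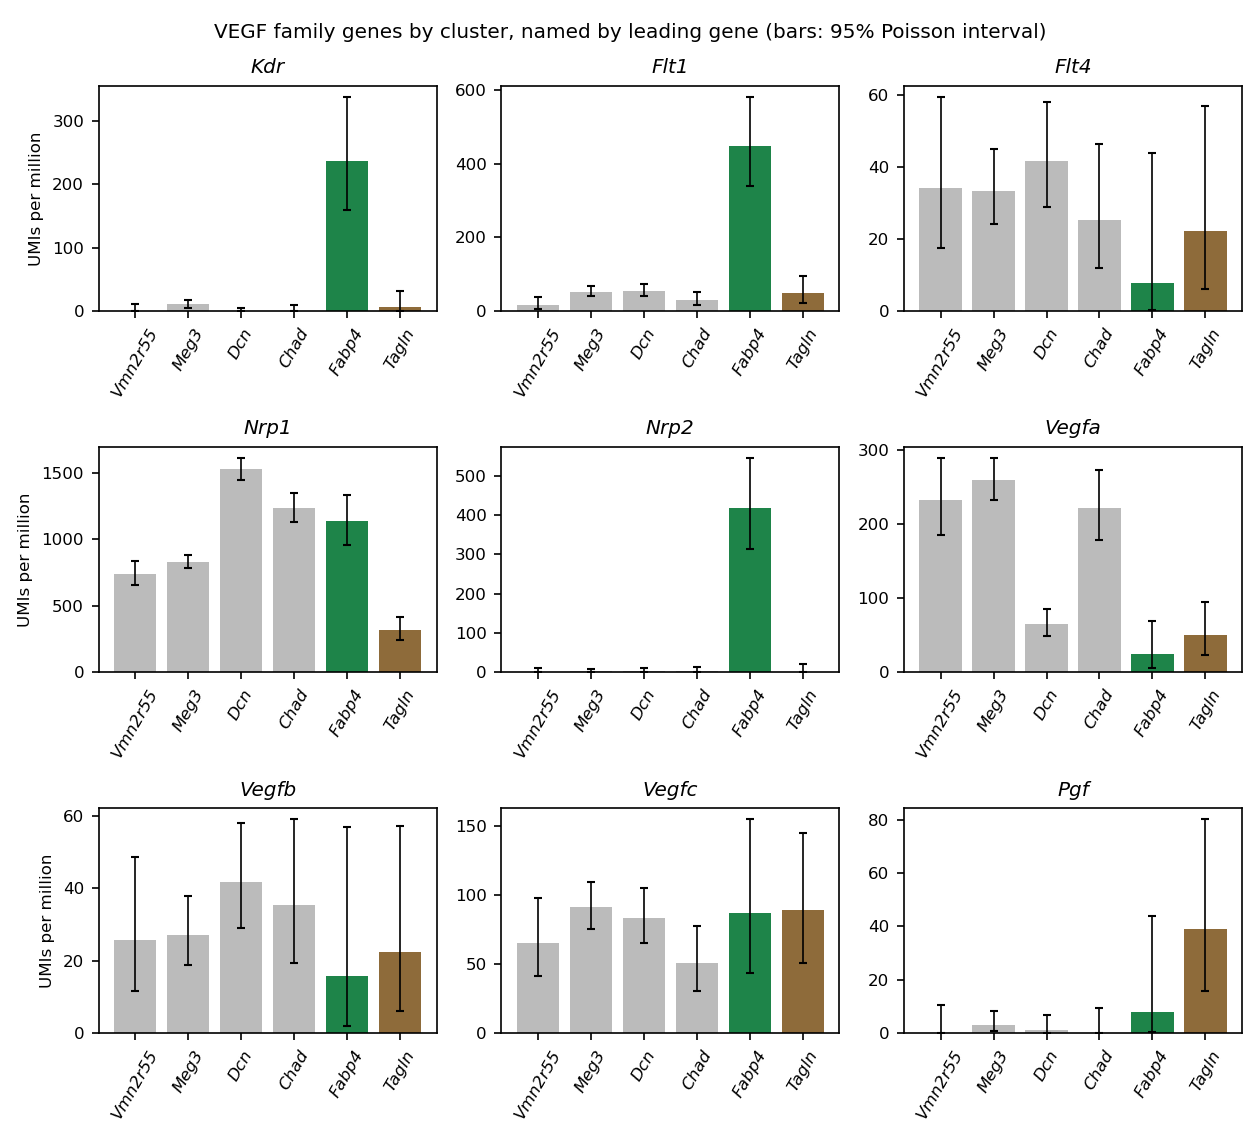
Bars show the CPM of each gene in the 6 clusters, named by their leading gene, with 95% Poisson intervals; green marks the cluster led by *Fabp4* and *Cd36* and brown the smooth muscle-like cells. *Kdr* (237), *Flt1* (449.6) and *Nrp2* (418) were highest in the *Fabp4*-led cluster, where *Vegfa* was lowest (23.7).

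Outside this cluster *Kdr* was seldom counted. The *Vmn2r55*-, *Dcn*- and *Chad*-led clusters together gave 0 *Kdr* UMIs, where 3 UMIs would have been 8.52, 3.57 and 7.56 CPM, and all 13 remaining UMIs lay in the *Meg3*-led cluster (10.3 CPM). A *Kdr* UMI was found in 13 of the 23 cells (56.5%, exact binomial interval 34.5% to 76.8%) and in 9 of the other 403 (2.23%). Among the 15 smooth muscle-like cells, used as the reference for RNA from elsewhere, 1 had one (6.67%, with a median of 7368 UMIs per cell against 5539 in the 403), but 15 cells leave that reference wide (0.169% to 31.9%). They passed the same CD31 sort, and 10 of them had a *Pecam1* UMI and 5 a *Cdh5* UMI, so they are not free of endothelial RNA. The 9 cells were all among the 117 *Meg3*-led cells (7.69%), whereas the 86 *Dcn*-led cells, of similar depth, had none. Whether the *Kdr* UMIs of the *Meg3*-led cells come from those cells was not tested. *Nrp2* was found in 18 of the 23 cells (78.3%), in 7 of the 403 (1.74%) and in 0 of the 15. With every cell thinned to 1000 UMIs, 30.4% of the 23 cells kept a *Kdr* UMI and 47.8% an *Nrp2* UMI, and none of the 403 did. *Flt1* was wider spread. It was found in 12 of the 23 cells (52.2%) and in 73 of the 403 (18.1%), and it stood at 17 to 54.7 CPM in the other 4 clusters. Of the 15 smooth muscle-like cells 2 had it (13.3%, interval 1.66% to 40.5%), and 1 of them held 5 of their 9 UMIs. That reference is too small and too mixed to say whether the *Flt1* UMIs outside the cluster are background.

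Seen mouse by mouse, *Kdr* was higher inside the cluster than outside in 4 of 4 mice. Inside it had 341 and 301 CPM in the EC-KO-labelled mice and 151 and 172 CPM in the EC-WT-labelled mice, and outside it had 3.03 to 5.83 CPM, from 3 or 4 UMIs in each mouse. *Nrp2* was likewise higher inside in every mouse, at 217 and 188 CPM in the mice labelled EC-KO and 697 and 515 in those labelled EC-WT. Outside the cluster it had 0 UMIs in both EC-KO-labelled mice, which allows up to 3.03 and 4.11 CPM (3 UMIs of the total), and 4 UMIs in each EC-WT-labelled mouse (6.53 and 7.77 CPM). *Flt1* was higher inside in 3 of 4 mice. It had 744, 715 and 372 CPM in the 2 EC-KO-labelled mice and EC-WT-labelled mouse 2, but 30.3 CPM inside, from 1 UMI, against 50.6 outside in EC-WT-labelled mouse 1.

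**Figure D3:**
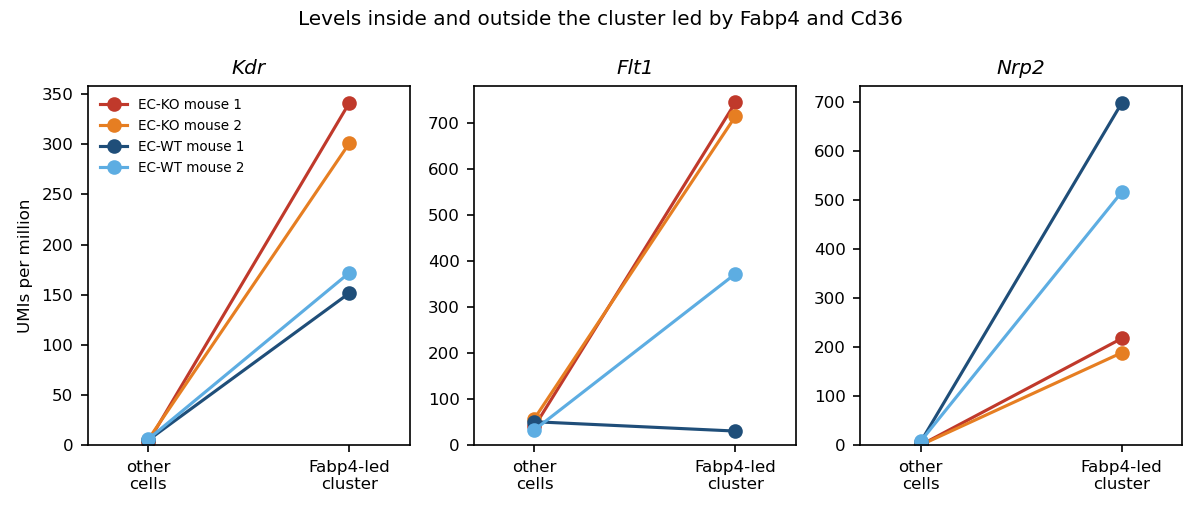
Lines join, for each mouse, the CPM outside and inside the cluster led by *Fabp4* and *Cd36*, for *Kdr*, *Flt1* and *Nrp2* (3 to 8 cells per mouse inside). All 4 lines rise for *Kdr* and *Nrp2*; for *Flt1* the line of EC-WT-labelled mouse 1 does not (50.6 outside, 30.3 inside).

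Within these few cells the order of the groups ran both ways. The EC-KO-labelled mice were the higher pair for *Kdr* and *Flt1* and the lower pair for *Nrp2*, on 19, 43 and 12 UMIs against 11, 14 and 41. Of the 1234 genes with at least 20 UMIs in the cluster, 13.5% separated the mice with EC-KO higher and 18.9% with EC-KO lower, so a separation of this kind is common there. Exact permutation over 2 against 2 mice gives p = 0.333 for each of the 3, the smallest it can give. The 4 venous markers moved the same way as *Nrp2*, summing in the cluster to 1055 and 1203 CPM in the mice labelled EC-KO and 2090.4 and 1460.0 CPM in those labelled EC-WT, with no overlap. Among them *Nr2f2*, a venous transcription factor, had 465 and 451 against 1333 and 515 CPM. The order was not particular to the venous list. The 14 endothelial markers stood in the cluster at 12624 and 16585 against 17026 and 18494 CPM, also with no overlap. The capillary and lipid-handling markers overlapped, at 16626 and 10794 against 10482 and 13885 CPM. EC-KO-labelled mouse 2 gave only 3 cells, and 1 of them held 6 of the 8 *Kdr* UMIs and 18 of the 19 *Flt1* UMIs of the 3. With the richest cell of each mouse left out, *Kdr* stood at 238 and 138 CPM in the mice labelled EC-KO and 117 and 163 in those labelled EC-WT, and *Flt1* at 475 and 68.8 against 0 and 286, so the groups overlapped for both. *Nrp2* stood at 207 and 112 against 629 and 418 CPM and still did not overlap.

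*Vegfa* showed a contrasting distribution. It had 233, 259.7 and 222 CPM in the *Vmn2r55*-, *Meg3*- and *Chad*-led clusters, 65.4 CPM in the *Dcn*-led cluster and 23.7 CPM, from 3 UMIs, in the *Fabp4*-led cluster. The gap between the *Meg3*- and *Dcn*-led clusters was seen in 4 of 4 mice, at 249 against 64.8, 296 against 99.4, 258 against 54.2 and 194 against 51.5 CPM, or 2.98- to 4.76-fold. The intervals of the first 3 clusters overlapped (185 to 289, 232 to 289 and 178 to 273 CPM). The *Meg3*-led cells held 58.9% of the *Vegfa* UMIs outside the smooth muscle-like cluster and 42.3% of all UMIs there. In cells thinned to 1000 UMIs, *Vegfa* was found in 20.6% of the *Vmn2r55*-led, 23.9% of the *Meg3*-led and 18.6% of the *Chad*-led cells, against 5.81% of the *Dcn*-led cells and 1 of 23 *Fabp4*-led cells (4.35%). The smooth muscle-like cells, the reference for RNA from elsewhere, had a *Vegfa* UMI in 5 of 15 cells (33.3%, interval 11.8% to 61.6%) and 50.1 CPM (22.9 to 95.2). Without thinning, 94 of 117 *Meg3*-led cells had one (80.3%) and 27 of 86 *Dcn*-led cells (31.4%), so the *Dcn*-led level cannot be told from that reference. Whether the smooth muscle-like cells made their own *Vegfa* RNA was not tested. The likeness therefore does not show where the *Dcn*-led UMIs came from.

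*Nrp1* was common to every cluster. It had 1530.2 CPM in the *Dcn*-led cluster, 1237 in the *Chad*-led, 1136 in the *Fabp4*-led, 833 in the *Meg3*-led and 741 in the *Vmn2r55*-led cluster, and 317 CPM (240.5 to 411) in the smooth muscle-like cells. The *Dcn*-led cluster was above the *Meg3*-led cluster in 4 of 4 mice, by 2.23- and 2.88-fold in the mice labelled EC-KO and by 1.12- and 1.19-fold in those labelled EC-WT. Single cells weigh on these ratios: 173 of the 366 *Dcn*-led UMIs of EC-KO-labelled mouse 2 came from 1 cell, as did 90 of the 209 *Meg3*-led and 75 of the 146 *Dcn*-led UMIs of EC-WT-labelled mouse 1 and 55 of the 162 *Meg3*-led UMIs of EC-WT-labelled mouse 2. With the cell richest in *Nrp1* left out of each cluster and mouse, the ratios were 2.16 and 1.96 against 1.13 and 1.49, and the difference between groups was not tested. Without the cell of 173 UMIs, which held 18.8% of its mouse's total over all clusters, EC-KO-labelled mouse 2 stood at 1021 CPM in all. With the cell richest in *Nrp1* left out of every mouse, the values were 1146 and 1021 CPM in the mice labelled EC-KO. In those labelled EC-WT they were 778 and 868 CPM. Over the 19 sums of 1 mouse and 1 cluster with at least 5 cells, centred within mice on log2(CPM + 50), the genes whose pattern was most like that of *Nrp1* were *Col4a1* (Pearson r = 0.67), a basement membrane collagen, *Gnai2* (0.67), a G protein subunit, and *2610507B11Rik* (0.67), among 1847 genes with at least 100 CPM. These points share libraries and depth.

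*Flt4*, *Vegfb* and *Vegfc* did not follow the *Fabp4*-led cluster. *Flt4* had 1 UMI there, out of 100, and 25.2 to 41.7 CPM in the other 4 clusters. It was found in 65 of the 403 cells outside the cluster (16.1%) and in 2 of the 15 smooth muscle-like cells (13.3%). At this depth so small and mixed a reference cannot say whether the *Flt4* share is background. *Vegfb* had 2 UMIs in the *Fabp4*-led cluster and 25.6 to 41.7 CPM in the other 4. *Vegfc* lay between 50.4 and 91.3 CPM in these 5 clusters and at 89.1 CPM in the smooth muscle-like cells, with overlapping intervals. *Pgf* had 7 of its 13 UMIs in the smooth muscle-like cells (39.0 CPM, 15.7 to 80.3), and 6 of those 7 came from 1 cell.

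**Figure D4:**
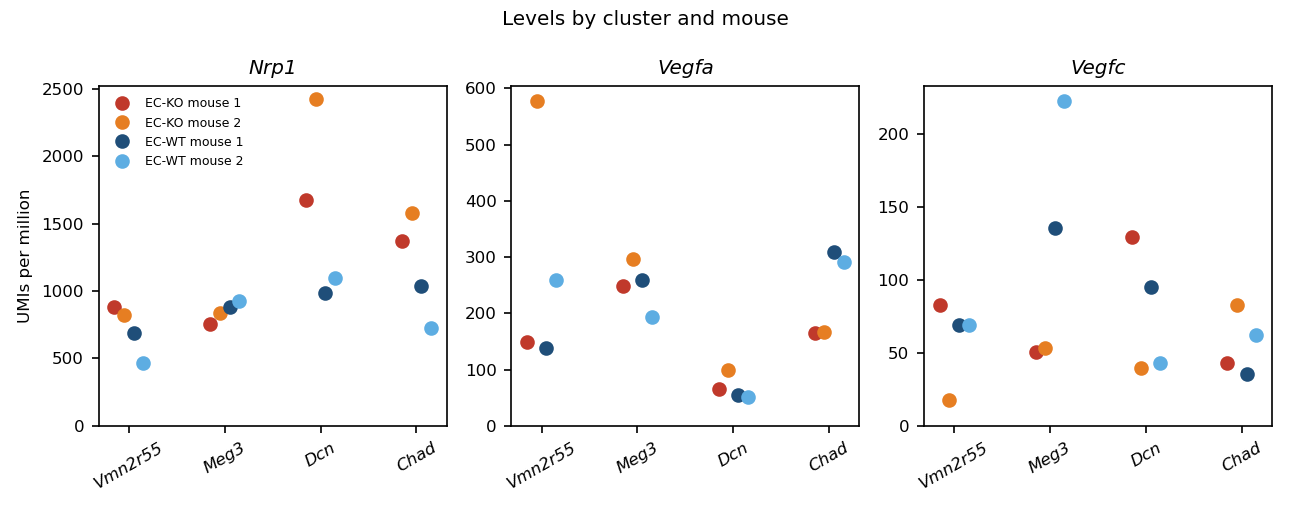
Points give the CPM of *Nrp1*, *Vegfa* and *Vegfc* in each mouse for the 4 clusters with at least 5 cells in every mouse. *Vegfa* is lower in the *Dcn*-led than in the *Meg3*-led cluster in each mouse, and *Nrp1* in the *Dcn*-led cluster reaches 1678 and 2425 in the EC-KO-labelled mice against 989.6 and 1098 in the others (1 cell gave 173 of the 366 UMIs behind the 2425).

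Single cells seldom showed several receptors. A UMI of *Kdr*, *Flt1* or *Flt4* was found in 138 of 426 cells (32.4%), UMIs of at least 2 of them in 33, and of all 3 in 2. Of the 22 cells with *Kdr*, 14 also had *Flt1* (63.6%), against 17.6% of the cells without *Kdr*, and 10 also had *Nrp2* (45.5%, against 3.71%). The *Fabp4*-led cluster, where these genes were concentrated, held 9 of the 14 cells with *Kdr* and *Flt1*, so the contrast is not independent of it. Cells with *Kdr* were somewhat deeper (median 7692 UMIs against 5383). All 13 *Kdr*-bearing cells of the *Fabp4*-led cluster had a *Fabp4* or *Cd36* UMI, but so did all 19 *Nrp1*-bearing cells there. Those genes lead the cluster, so this adds no link to *Kdr*. Outside it 3 of the 9 *Kdr*-bearing and 87 of the 345 *Nrp1*-bearing cells had one. *Vegfa* was found in 207 cells (48.6%), and 53 of these (25.6%) had a UMI of *Kdr* or *Flt1*, the genes of its receptors, against 40 of the 219 cells without *Vegfa* (18.3%). The cells with *Vegfa* were also the deeper ones (median 7539 UMIs against 4000.0). A share of cells depends on depth, and 25 cells had no UMI of any of the 9 genes.

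*Flt1* was the most counted of the 3 receptors in every mouse. Its share of the summed *Kdr*, *Flt1* and *Flt4* UMIs was 58.7% and 61.6% in the mice labelled EC-KO (of 109 and 99 UMIs) and 55.2% and 46.9% in those labelled EC-WT (of 58 and 64). The means were 60.2% ± 2.05 and 51.0% ± 5.87 (SD, n = 2), and the single shares carried binomial intervals as wide as 41.5% to 68.3%. The difference of 9.14 percentage points gave p = 0.333 in an exact 2-sided permutation test, the smallest that 2 against 2 mice can give. Without the *Fabp4*-led cluster it was 7.87 points, and the groups then overlapped (exact p = 1.0).

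Summed over the 426 cells, no family gene was called different between the groups. Of the 9 genes, 8 passed edgeR's filter on low counts (*Pgf* did not), 4 of these were higher and 4 lower in the mice labelled EC-KO, and 0 had an adjusted p under 0.05 in edgeR's quasi-likelihood test. The median log2 fold change of the 8 was -0.03 against 0.00 over all 8145 genes tested. In the same test 1 gene of the 8145 was called (0.0123%), *Acta2*, a smooth muscle actin, at 1.91 higher on the log2 scale. At an unadjusted p under 0.05 stood 2 of the 8 members and 5.45% of all genes. DESeq2 called 2 of 16035 genes (0.0125%), neither of them a member, and put 0.674% under an unadjusted 0.05. The groups did not overlap in CPM for 4 members, *Nrp1* and *Flt1* with EC-KO higher and *Nrp2* and *Vegfc* with EC-KO lower. Over all genes tested 35.2% did not overlap, 15.3% with EC-KO higher and 19.9% lower, and a count of 4 among 8 genes is too small to be set apart from that.

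*Nrp2* had the largest difference of the 8. Its log2 fold change was -2.54 (standard error 0.48, adjusted p = 0.279, edgeR), at 6.72 ± 0.161 CPM in the mice labelled EC-KO and 40.9 ± 1.26 CPM in those labelled EC-WT (SD, n = 2), and it was lower in both. Its side of the threshold turned on the processing. It was called without a filter on low counts (adjusted p = 0.00125, beside 0.0499% of genes called lower), with the heaviest cells left out, those past 3 times their mouse's median (0.0217, beside 0.0133%), and without EC-KO-labelled mouse 2 (0.0485, beside 0.0464%), EC-WT-labelled mouse 1 (0.0429, beside 0.532%) or EC-WT-labelled mouse 2 (0.0355, beside 0.0672%). It was not called in the other 12 alternatives with a test, where the adjusted p reached 0.9998 under DESeq2. In all of these the log2 fold change lay between -2.94 and -2.37, and for EC-KO-labelled mouse 2 over EC-WT-labelled mouse 1, sequenced on 1 flow cell, it was -2.66. The difference moves with the *Fabp4*-led cluster, which made up 3.82% and 3.06% of the kept cells of the mice labelled EC-KO against 7.02% and 8.33%; *Nrp2* was lower both within it (217 and 188 against 697 and 515 CPM) and outside it (0 against 4 UMIs a mouse), although the share of the cluster's cells with an *Nrp2* UMI was not (6 of 6 and 2 of 3 cells against 5 of 8 and 5 of 6), and too few UMIs were left outside it for a test. The venous markers of the cluster were lower alongside (1055 and 1203 against 2090.4 and 1460.0 CPM), and so were its endothelial markers (12624 and 16585 against 17026 and 18494 CPM). The part of either list in the *Nrp2* difference was not tested. In sums over cells, fewer cells of a kind and less RNA per cell cannot be told apart.

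*Nrp1* had a log2 fold change of 0.44 (standard error 0.18, adjusted p = 0.879, edgeR), at 1207 ± 9.35 CPM against 909 ± 44.4 CPM. It kept its direction in all 21 alternatives, between 0.23, without the *Dcn*-led cluster, and 0.76, with cells thinned to 1000 UMIs, and was called in none of the 20 that gave a test (lowest adjusted p 0.485). In thinned cells 67.1% and 59.6% of the EC-KO-labelled and 46.9% and 40.0% of the EC-WT-labelled mice's cells had an *Nrp1* UMI (unthinned 91.9%, 90.4%, 75.2% and 81.4%). The groups did not overlap, and the exact permutation p was 0.333. The fibroblast markers, summed over the same cells, stood at 2826 and 1814 CPM in the EC-KO-labelled and 1222 and 1541 CPM in the EC-WT-labelled mice, and the 11 smooth muscle markers at 951 and 982 against 362 and 329 CPM. Their part in the *Nrp1* difference was not tested.

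**Figure D5:**
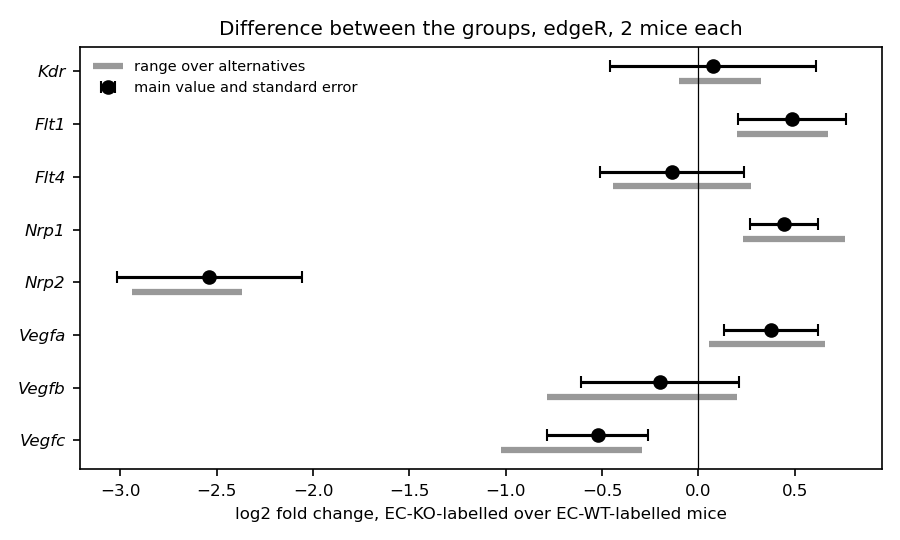
Black points and bars give the log2 fold change and standard error of the 8 genes that passed the filter, EC-KO-labelled over EC-WT-labelled mice, and grey bars the range over the alternatives. *Nrp2* lies between -2.94 and -2.37 under every alternative that gave it a value, while the ranges of *Kdr*, *Flt4* and *Vegfb* cross 0.

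Among the other members, *Flt1* differed by 0.48 (standard error 0.28, adjusted p = 0.886), by 0.22 without the *Fabp4*-led cluster and by 0.20 with read counts. *Kdr* differed by 0.08 (standard error 0.53, adjusted p = 0.998) and *Flt4* by -0.14 (standard error 0.38, adjusted p = 0.992), all from edgeR. For the ligands the values were 0.38 for *Vegfa* (standard error 0.24, adjusted p = 0.892), -0.52 for *Vegfc* (standard error 0.26, adjusted p = 0.879) and -0.20 for *Vegfb* (standard error 0.41, adjusted p = 0.984). The *Vegfa* value depended on single mice, at 0.05 without EC-KO-labelled mouse 2, 0.16 without EC-WT-labelled mouse 2, and 0.66 and 0.63 without mouse 1 of either group. It was 0.25 without the *Dcn*-led cluster, 0.16 without the heaviest cells, 0.13 in thinned cells and 0.57 with read counts. *Vegfc* moved to -1.02 without the *Dcn*-led cluster and to -0.83 and -0.29 without EC-KO-labelled mouse 1 or 2, and *Flt4* to -0.36 without the *Dcn*-led cluster. None of these 3 was called in any alternative. The exact permutation p was 0.333 or higher for the CPM of every member.

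The comparison was repeated within the 4 clusters that held at least 5 cells of every mouse. The filter left 2, 5, 4 and 2 members to test in the *Vmn2r55*-, *Meg3*-, *Dcn*- and *Chad*-led cluster (*Nrp1* and *Vegfa* in each, and *Kdr*, *Nrp2*, *Vegfb* and *Pgf* in none). None of those tested was called, among 0.986% of genes called in the *Vmn2r55*-led, 0.018% in the *Meg3*-led, 0.08% in the *Dcn*-led and 0.0% in the *Chad*-led cluster (18 of 1825, 1 of 5569, 3 of 3748 and 0 of 1878). At an unadjusted p under 0.05 stood *Nrp1* in the *Vmn2r55*-led (0.68), the *Dcn*-led (0.98) and the *Chad*-led cluster (0.80), and *Vegfc* in the *Meg3*-led cluster (-1.74), with adjusted p of 0.631, 0.632, 0.993 and 0.847 in edgeR. Of all genes tested, 6.96%, 4.67%, 4.72% and 3.3% stood there in the *Vmn2r55*-, *Meg3*-, *Dcn*- and *Chad*-led cluster. In the *Meg3*-led cluster *Nrp1* had the other sign (-0.17), at 753 and 841 against 885 and 923 CPM, but 1 cell in each mouse decides it: without the richest cell the values were 698 and 791 against 584 and 677 CPM, the order of the other clusters. In the *Dcn*-led cluster it had 1678 and 2425 CPM in the mice labelled EC-KO and 989.6 and 1098 in those labelled EC-WT, and without the richest cell of each mouse 1510.0 and 1555 against 661 and 1008 CPM. *Vegfc* in the *Meg3*-led cells had 50.2 and 53.4 CPM against 136 and 222 CPM, from 20, 24, 32 and 39 UMIs, and 1 cell of EC-WT-labelled mouse 2 gave 18 of its 39 (without the richest cell of each mouse 40.8 and 43.1 against 118 and 133 CPM). Whether clusters differ in these values was not tested.

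The wider pathway was followed in 5 lists of 91 genes in all, of which 87 were listed and 67 passed the filter. None of the 67 was called, 31 had a positive log2 fold change, and their median was -0.01 against 0.00 over all genes. At an unadjusted p under 0.05 were 2 of them, the focal adhesion gene *Pxn* (-0.69) and the adaptor gene *Nck1* (0.65), with a lowest adjusted p of 0.814 in edgeR. Of all 8145 genes tested, 5.45% stood there, so 2 of 67 is not set apart from that share. A list of 13 neuropilin partners held class 3 semaphorins, plexins and the adaptor gene Gipc1. Of these, 7 passed the filter and 5 were positive, Gipc1 among them (0.50), with a median of 0.18. The most counted were *Sema3f* (299 ± 48.1 CPM over the 4 mice, SD), a ligand of neuropilin-2, and *Plxna4* (204 ± 16.8) and *Plxna2* (188 ± 34.1), receptors that pair with neuropilins. Of the receptor adaptors, phosphatases and endocytosis genes, 22 of 25 passed and 9 were positive (median -0.05), led by *Ptprb* (3217 ± 203 CPM), the phosphatase VE-PTP, *Ctnnb1* (1209.7 ± 89.4) and *Ptprj* (603 ± 143).

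Among the kinase cascades and effectors, 29 of 33 genes passed and 12 were positive (median -0.04). *Cdc42* (706 ± 53.6 CPM), *Nos3* (614 ± 119 CPM), the endothelial nitric oxide synthase, and *Rac1* (603 ± 67.9 CPM) were the most counted, with log2 fold changes of -0.05, 0.25 and -0.21. Of the 14 genes known to respond to VEGF, 6 passed and 5 were positive (median 0.25). *Nos3* belongs to this list too, and the next most counted were *Nr4a1* (71.9 ± 17.1 CPM), an early response transcription factor, and *Rcan1* (41.7 ± 3.01 CPM), an inhibitor of calcineurin. Of the 7 genes for ligand processing and the remaining VEGFR-3 ligand, 4 passed and 1 was positive (median -0.27). *Hspg2* (211 ± 47.9 CPM), *Pcsk5* (93.8 ± 13.9 CPM) and *Furin* (90.7 ± 24.4 CPM) led it, and *Vegfd*, listed under its older name *Figf*, had 20.7 ± 4.16 CPM. *Plxnd1*, a semaphorin receptor of endothelial cells named here after its values were seen, had 489 CPM in the *Fabp4*-led cluster and 140.1 CPM in the other 403 cells. *Plxna2* (63.1 against 198 CPM), *Plxna4* (103 against 212 CPM) and *Sema3f* (205 against 302 CPM) had the other order. *Plxna1* stood at 31.6 CPM, from 4 UMIs, against 24.6 CPM.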

How the data were processed

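Single aortic cells of 4 mice were profiled by SORT-seq. Per the submitters' processing notes the tools were BWA 0.7.15 and Seurat, and the builds GRCm38 and mm10. For each plate the authors deposited UMI counts per gene and well, counts of reads, and expected counts of transcripts, derived by the authors from the UMIs with a correction for the 4096 possible identifiers. The formula returned every value within 1e-09. No table was normalized. The deposited tables hold all wells, and UMI counts were used here.

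Cells were clustered with Seurat 5.3.0 (2000 variable genes less the members, 10 principal components, the lowest resolution giving 6 clusters, 0.6). Cells of 1 cluster are not replicates. No doublet caller was run. UMIs of the 426 cells were summed per mouse and fitted across all genes with edgeR 4.0.16 (TMM, filterByExpr, quasi-likelihood test, Benjamini-Hochberg adjustment, called under 0.05), with DESeq2 1.42.0 as an alternative, in R 4.3.3. The standard error is the log2 fold change over the root of F. Per-mouse totals of 549570 to 1023791 UMIs set the precision. Exact tests and intervals (Poisson and Clopper-Pearson, 95%) were made in Python 3.11.15 with scipy 1.17.1. Positions are from GENCODE M21 on GRCm38. In data simulated for this comparison, 47 of 200 genes changed by 1 on the log2 scale were recovered (7802 genes run), 179 by 2 (7795 genes) and 199 by 3 (7813 genes), with 7, 14 and 9 others called. The changed genes were drawn only from those above a minimum total of UMIs, so these shares do not hold for the least counted genes tested.

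The members and lists were chosen with earlier results of these data known. Named genes were the 9 members, *Epas1*, the 3 most counted and every called gene of each pathway list, up to 3 genes most like each member with at least 100 UMIs in every mouse (*Nrp1* alone), and the 5 leading genes of each cluster; others were named after their values were seen. Alternatives were DESeq2, no normalization factors, other filters on genes and wells, transcript and read counts, *Rn45s* left out, thinned cells, cells over 3 times the median left out, the replicate block, other clusterings, all kept cells, each mouse left out, and the flow-cell pair. Leaving out the *Fabp4*-led cluster, or the cell richest in a gene from each mouse or from each cluster and mouse, was added after the data were seen.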

Additional observations from a re-analysis of the deposited data

Results flagged for a closer look

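The wells of plate rows L to P, 480 over the 4 plates, held no kept cell and took no part in the comparisons, yet some members had UMIs there above the 3 that a count of 0 allows. *Nrp1* had 11 and 9 UMIs in those rows of the EC-KO-labelled mice 1 and 2 and 4 and 8 in those of the EC-WT-labelled mice 1 and 2. *Vegfa* had 4 in EC-WT-labelled mouse 1 and at most 1 in each other mouse. Over the 28791 nuclear UMIs of these wells *Nrp1* stood at 1111 CPM (760.2 to 1569, 95% Poisson) and *Vegfa* at 208 CPM (76.5 to 454). These intervals hold their levels in the 426 cells outside the smooth muscle-like cluster (1086 and 187 CPM). *Kdr*, *Flt4*, *Nrp2*, *Vegfb* and *Pgf* had 0 UMIs there, where 3 UMIs would be 104 CPM. Where these UMIs came from was not tested. No group had enough mice for a check of single outlying mice.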

How the results depend on the processing

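The values of *Flt1*, *Nrp1*, *Nrp2*, *Vegfa* and *Vegfc* kept their direction in every alternative that gave one. *Kdr*, near 0, turned to -0.10 without EC-WT-labelled mouse 1 (0.25 was its highest with a mouse left out), -0.073 without the *Dcn*-led cluster, -0.087 with no mitochondrial limit and -0.053 with read counts. *Flt4* turned to 0.27 in the flow-cell pair and 0.22 without EC-WT-labelled mouse 2 (lowest with a mouse left out -0.44). *Vegfb* turned to 0.20 without the *Dcn*-led cluster, 0.015 with read counts and 0.18 without EC-KO-labelled mouse 2 (lowest -0.79), and was -0.67 in the flow-cell pair. *Nrp2* passed the threshold with no filter on low counts (-2.53), with cells over 3 times the median left out (-2.94) and with 3 of the 4 mice left out in turn (-2.59 to -2.49); in a fit with 1 mouse left out the lone mouse is assumed to vary like the other group. It gave no test under the filter of 100 UMIs, in thinned cells or without the *Fabp4*-led cluster, where too few UMIs were left. The 1 called gene became 2 with DESeq2 or at least 2000 UMIs per well, 20 with no filter on low counts, 10 with all kept cells, 3 without the *Fabp4*-led cluster or the heaviest cells, 20 to 77 with a mouse left out, and 0 without the *Dcn*-led cluster, with read counts or in thinned cells. Members called were 0 or 1 throughout, and pathway genes called 0, or 1 (*Plxna1*) without EC-WT-labelled mouse 1. The replicate block called 0 genes and left *Nrp2* at -2.54 (adjusted p = 0.957 in edgeR) and the *Flt1* share at 9.14 points; it changed no other call, and since mice share only a number (r = -0.04 between the deviations of the mice numbered 1, over 8145 genes) it is no pairing. Shares of cells with a UMI (EC-KO minus EC-WT, percentage points) turned in thinned cells for *Kdr* (0.914), *Vegfb* (0.885) and *Pgf* (0.532), with all kept cells for *Pgf* (0.0842), and with a mouse left out for *Kdr* (-4.09 to 0.0519), *Flt4* (-6.6 to 1.56), *Vegfc* (-6.7 to 5.97) and *Pgf* (-3.08 to 1.2). The *Flt1* share difference stayed between 2.49 points (read counts) and 13.3. Other clusterings kept 21 to 23 of the 23 *Fabp4*-led cells. The cluster highest for smooth muscle markers was less stable: it held 83 cells with 20 principal components (46 of them *Dcn*-led) and 102 at a minimum of 500 UMIs (84 *Dcn*-led), against 12 to 15 in the others, and apart from all kept cells every sum leaves out the same 15. Depth limits *Kdr*, *Nrp2* and *Pgf* most.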

Other observations

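One *Meg3*-led cell of EC-WT-labelled mouse 2, with 17377 nuclear UMIs, held 18 of that mouse's 59 *Vegfc* UMIs (30.5%), 9 of its 76 *Vegfa* UMIs (11.8%) and 55 of its 517 *Nrp1* UMIs (10.6%).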
